A study of Mus musculus with 12 samples.

Results

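The genes described here are 6 transcription factors that mark regions and cell types of the forebrain: Emx1, Lhx2, Neurod6, Tbr1, Fezf2 and Bcl11b. They were taken by symbol from the table of expected counts, which held 55450 genes, and all 6 were found. The study sequenced total RNA of brain and liver from male mice aged 7 to 9 weeks. The groups were wild-type mice, whose library titles read flx, and knockout mice labelled vaultrc5-/-, which lack the gene of a small vault RNA, with 3 libraries for each tissue and genotype and 12 in all. No other allele or agent is named, and the labels do not say which part of the brain was taken or whether the same mouse gave both tissues. Nor do they say that replicates were separate litters or preparations, so the tests measure the spread between these libraries.

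The cerebral cortex and hippocampus arise from the dorsal part of the embryonic forebrain, the pallium, and the striatum from the ventral part, the subpallium. Emx1 and Lhx2 are homeodomain factors of the pallium: Emx1 marks its excitatory lineage, and Lhx2 specifies cortical identity in its progenitors. Neurod6, a basic helix-loop-helix factor, and Tbr1, a T-box factor, act in young pallial excitatory neurons, Tbr1 above all in those of the deep cortical layers. Fezf2 and Bcl11b are zinc finger factors of deep-layer neurons that project out of the cortex. Bcl11b is also made by striatal projection neurons and by T cells, and Lhx2 by stellate cells of the liver. Adult forebrain keeps the expression of all 6, whereas cerebellum and hindbrain carry other sets of factors, such as Zic1 and the Hox genes.

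Brain libraries held 14844971 to 18567381 counts each, and liver libraries 23247449 to 27155480. Snap25, a neuronal gene, had at least 31003 counts in each brain library and at most 3 in each liver library, and the hepatocyte gene Alb had at most 5 counts in brain. Vaultrc5 had 0 counts in the 6 knockout libraries, 33 to 48 in wild-type liver and 1 to 4 in wild-type brain. The brain libraries stood apart from each other in the levels of regional marker genes. The summed level of 10 cerebellar marker genes was 3092 and 2946 CPM (counts per 1000000, with library sizes scaled by TMM) in the wild-type and knockout libraries numbered 1. It was 192 and 177 CPM in those numbered 2, and 801 and 1324 CPM in those numbered 3. Numbers are those of the titles, and the labels do not say what a number stands for.

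In brain, all 6 genes were at least 1.57 times as high in library 2 as in library 1 of the same genotype. None differed between knockout and wild type beyond the spread of the libraries, although all 6 were higher in knockout than in wild-type library 3, by 1.02 to 1.89 times. For 5 of the 6, all but Lhx2, both libraries numbered 2 were above the other 4, a pattern that 15.5% of all genes tested in brain showed.

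Emx1 (ENSMUSG00000033726.8) lies on chromosome 6 from 85187438 to 85204462, plus strand (GRCm38). It was at 5.65, 14.7 and 6.78 CPM in wild-type brains 1, 2 and 3 and at 6.53, 12.7 and 11.5 CPM in the knockout brains. Both libraries numbered 2 were highest, and both numbered 1 were lowest.

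Lhx2 (ENSMUSG00000000247.11) lies on chromosome 2 from 38339281 to 38369733, plus strand. It was at 21.2, 45.5 and 27.8 CPM in the wild type and at 20.7, 41.3 and 43.1 CPM in the knockout. It was the only one of the 6 genes for which knockout library 3 was above knockout library 2.

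Neurod6 (ENSMUSG00000037984.9) lies on chromosome 6 from 55677822 to 55681263, minus strand. It was at 36.3, 61.6 and 34.4 CPM in the wild type and at 28.4, 66.2 and 47.2 CPM in the knockout. The libraries numbered 2 were above the other 4, and wild-type library 3 was slightly below wild-type library 1.

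Tbr1 (ENSMUSG00000035033.15) lies on chromosome 2 from 61802930 to 61814114, plus strand. It was at 83.7, 192 and 96.6 CPM in the wild type and at 99.0, 192 and 126 CPM in the knockout, so the libraries numbered 2 were nearly equal in both genotypes.

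Fezf2 (ENSMUSG00000021743.6) lies on chromosome 14 from 12342094 to 12348189, minus strand. It was at 12.4, 26.1 and 13.3 CPM in the wild type and at 10.9, 26.4 and 25.1 CPM in the knockout. Knockout library 3 was close to the libraries numbered 2, and wild-type library 3 was close to those numbered 1.

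Bcl11b (ENSMUSG00000048251.15) lies on chromosome 12 from 107910403 to 108003602, minus strand. It was at 59.7, 109 and 94.1 CPM in the wild type and at 88.6, 139 and 95.6 CPM in the knockout. Over the 6 brain libraries its coefficient of variation was 26.7%, the lowest of the 6 genes, and that of Fezf2 was 39.7%, the highest.

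**Figure D1:**
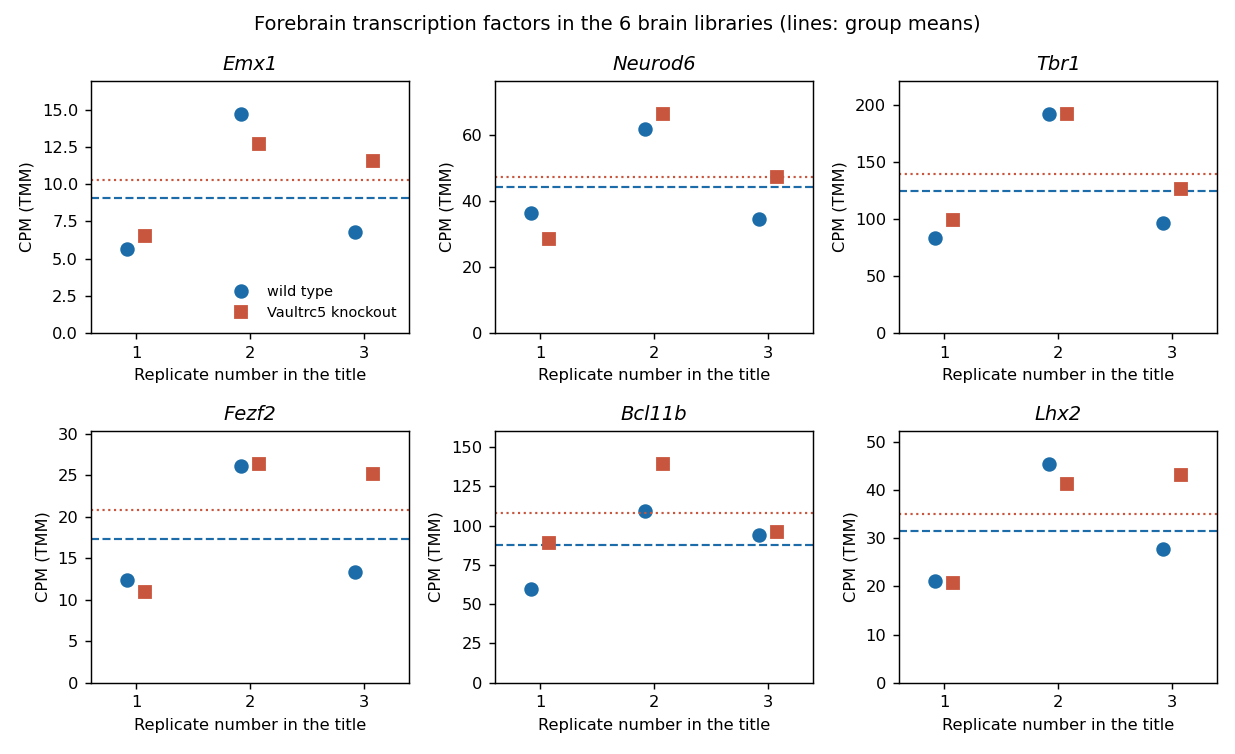
CPM of the 6 genes (y axis, from 0) in each brain library by replicate number (x axis), with circles for wild type, squares for knockout and lines for the group means. The libraries numbered 2 are the highest in both genotypes for every gene but Lhx2, for which knockout library 3 lies above knockout library 2.

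Knockout and wild-type brain overlapped for 6 of 6 genes (groups of 3 did not overlap for 4.23% of the 18075 genes tested). The log2 fold changes of knockout over wild type were 0.18 ± 0.42 for Emx1, 0.15 ± 0.36 for Lhx2, 0.10 ± 0.35 for Neurod6, 0.16 ± 0.37 for Tbr1, 0.27 ± 0.41 for Fezf2 and 0.30 ± 0.26 for Bcl11b (SE, 3 libraries per group). None passed edgeR's quasi-likelihood test with Benjamini-Hochberg adjustment over all genes (adjusted p = 1.00 for each), and the unadjusted p-values ran from 0.291 to 0.780. The share of all genes called was 0%, and 0.675% fell under an unadjusted p of 0.05. On the log2 scale the 95% interval ran from -0.32 to 0.92 for Bcl11b, the narrowest of the 6, and from -0.81 to 1.18 for Emx1, the widest. Each interval holds 0 as well as values on both sides of it.

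The median log2 fold change of the 6 genes was 0.17, and that of all genes tested was -0.01. All 6 values were above 0, as were 48.3% of those of all genes, but for Emx1, Lhx2, Neurod6 and Tbr1 this sign rested on single libraries. Without wild-type library 1 the values were -0.07 for Emx1, -0.06 for Lhx2, -0.02 for Neurod6 and -0.05 for Tbr1. Without knockout library 2 they were -0.21 for Neurod6 and -0.13 for Tbr1, without wild-type library 3 the value for Neurod6 was -0.05, and without knockout library 3 that for Lhx2 was -0.02. Fezf2 and Bcl11b stayed above 0 whichever single library was left out. Fezf2 ran from 0.072 without knockout library 2 to 0.70 without wild-type library 2. Bcl11b ran from 0.084 without knockout library 2 and 0.087 without wild-type library 1 to 0.49 without wild-type library 2. Among libraries with the same number, knockout over wild type had a median over the 6 genes of 1.07 for number 1 and 1.00 for number 2, with 3 of 6 genes above 1 in each, and of 1.46 for number 3, with 6 of 6 above 1. Leaving out both libraries of a number was a setting chosen after seeing the data. Without both numbered 3 the values were -0.08 for Emx1, -0.10 for Lhx2, -0.04 for Neurod6 and -0.04 for Fezf2. Tbr1 was then at 0.08 and Bcl11b at 0.44. All 6 stayed above 0 without both numbered 1, from 0.14 for Tbr1 to 0.38 for Fezf2. The same held without both numbered 2, from 0.12 for Neurod6 to 0.56 for Emx1.

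The difference between replicate numbers was tested in a fit with genotype and number. In edgeR's quasi-likelihood F-test of the number, 2 of the 6 genes passed, Tbr1 (adjusted p = 0.00675) and Bcl11b (adjusted p = 0.0465), where 7.93% of the 18075 genes were called. The adjusted p from edgeR was 0.0679 for Emx1, 0.0669 for Lhx2, 0.0667 for Neurod6 and 0.138 for Fezf2, and all 6 had an unadjusted p under 0.05, as did 25.3% of all genes. The log2 differences of number 2 over number 1 were 1.19 ± 0.25 for Emx1, 1.05 ± 0.20 for Lhx2, 0.98 ± 0.19 for Neurod6, 1.08 ± 0.11 for Tbr1, 1.17 ± 0.28 for Fezf2 and 0.75 ± 0.14 for Bcl11b (SE), where the median of all genes was 0.00. In the wild type the ratios of library 2 to library 1 ran from 1.70 to 2.61, and in the knockout from 1.57 to 2.42. A ratio above 1.5 in both genotypes was found for 6 of 6 genes and for 6.04% of all genes tested.

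The calls depended on the settings and on the libraries kept, for all genes as well as for these 6. Over all genes, 1433 were called in the main fit and 1034 to 2400 under the other settings with all 6 libraries. That count moved more widely when libraries were left out, as given below. A fit without a single library keeps only 1 library of that number. Bcl11b did not pass in edgeR with library totals (adjusted p = 0.0666) or without robust estimation (adjusted p = 0.0692), whereas the DESeq2 likelihood ratio test called 6 of 6 genes, with adjusted p-values of 4.26e-11 for Tbr1 and 0.0469 or lower for the other 5. With edgeR, Tbr1 had an adjusted p of 0.162 without wild-type library 1, 0.0897 without wild-type library 2 and 0.117 without knockout library 1. For Bcl11b it was 0.372 and 0.227 without wild-type libraries 1 and 2, and 0.194 and 0.186 without knockout libraries 1 and 2. For Emx1, Lhx2, Neurod6 and Fezf2 the adjusted p from edgeR fell under 0.05 when a library numbered 3 was left out: it was 0.00327, 0.000204, 0.00431 and 0.000359 without wild-type library 3, and 0.00415, 0.000509, 0.00386 and 0.000700 without knockout library 3. The 2 libraries numbered 3 disagreed with each other, with number 3 over number 1 between 0.947 and 1.58 in the wild type and between 1.08 and 2.31 in the knockout.

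**Figure D2:**
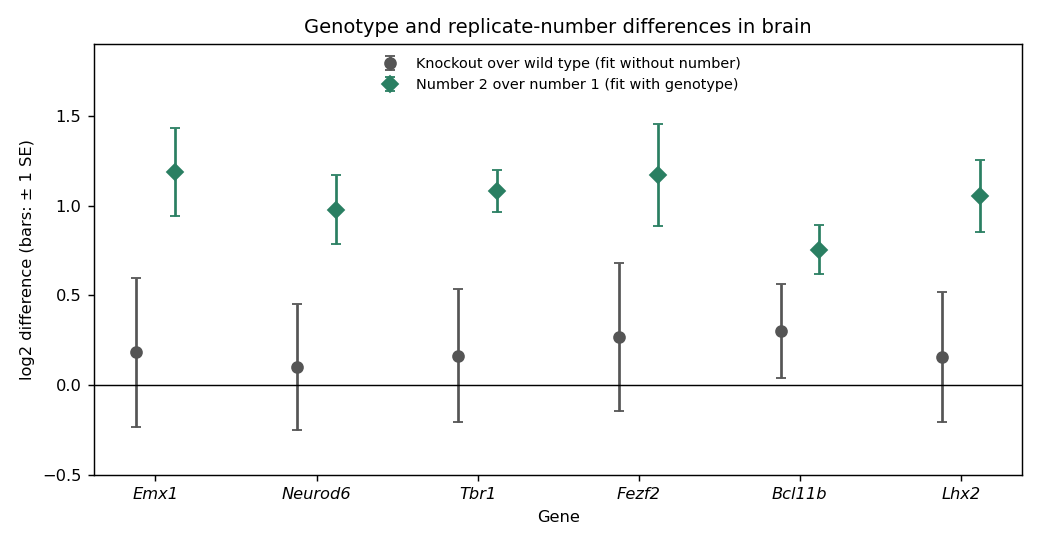
Log2 differences in brain (y axis) for each gene (x axis), with bars of 1 SE: circles, knockout over wild type in the fit without number; diamonds, number 2 over number 1 in the fit with genotype. The genotype differences lie between 0.10 and 0.30, and the number differences between 0.75 and 1.19.

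Levels of different genes were compared per kilobase of merged exon. In wild-type brain Tbr1 was at 22.6 ± 10.8 CPM per kilobase (SD, n = 3), Neurod6 at 20.5 ± 7.07, Bcl11b at 10.8 ± 3.11, Lhx2 at 7.17 ± 2.86, Fezf2 at 5.67 ± 2.52 and Emx1 at 4.14 ± 2.26. Knockout brain gave the same order, from 25.3 ± 8.72 for Tbr1 to 4.70 ± 1.51 for Emx1. Neighbours in this order differed by less than the sum of their SDs, but within a library the order varied little: it held in 5 of the 6 brain libraries, and in the other, wild-type library 1, Neurod6 (16.9) was above Tbr1 (15.3). The ratio of Emx1 to Tbr1 per kilobase ran from 0.166 to 0.230, a range of 1.39-fold and the narrowest of the 5 ratios to Tbr1. The widest was that of Fezf2, from 0.198 to 0.359, a range of 1.81-fold, and that of Bcl11b ran from 0.384 to 0.659, a range of 1.72-fold. As a description over 6 libraries that share depth and scaling, Pearson's r of log2 CPM was 0.978 for Fezf2 with Lhx2, the highest of the 15 pairs, and lowest for pairs with Bcl11b (0.691 with Neurod6).

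Markers of other brain regions also differed between libraries. The summed level of the 6 genes was 219 and 254 CPM in the libraries numbered 1 of wild type and knockout, 449 and 478 CPM in those numbered 2, and 273 and 349 CPM in those numbered 3. The cerebellar markers ran the other way between numbers 1 and 2. Of the 10 markers, 9 passed the F-test of number, all 9 lower in number 2 than in number 1, where 7.93% of all genes passed. Gabra6, a receptor subunit of cerebellar granule cells, was at 215 and 214 CPM in number 1 but at 0.165 and 0.0592 CPM in number 2. Choroid plexus markers, 5 genes, were at 250 and 651 CPM in number 1, 4.74 and 9.29 CPM in number 2, and 476 and 11.6 CPM in wild-type and knockout library 3. None of the 5 passed the F-test, although 5 of 5 did when either library numbered 3 was left out. The 10 striatal markers were at 330, 312 and 612 CPM in wild-type libraries 1 to 3 and at 812, 732 and 245 CPM in the knockout ones, and 0 of 10 passed the F-test of number. Bcl11b, which striatal neurons also make, was 1.48, 1.28 and 1.02 times as high in knockout as in wild-type libraries 1, 2 and 3. The striatal markers were also higher in the knockout in numbers 1 and 2, and were lower in number 3. From wild-type library 1 to 2, Bcl11b was 1.82 times as high and the striatal markers 0.947 times. Thalamic and midbrain markers, 7 genes, summed to 537 and 504 CPM in number 1 and to 202 and 221 CPM in number 2. In number 3 they were at 482 and 358 CPM. Of the 6 tested, 2 passed, Rora and Calb2, both lower in number 2 than in number 1. General neuronal markers, 5 genes, ran from 3569 to 4690 CPM, and 1 of them, Syt1, passed the F-test of number, with a log2 difference of 0.66 for number 2 over number 1. Microglial markers, 5 genes with none at 0, were at 93.9 and 103 CPM in number 1, 151 and 155 CPM in number 2 and 133 and 131 CPM in number 3, and 2 of 5 passed, Tmem119 and Csf1r, both higher in number 2 than in number 1. Astrocyte markers, 6 genes with none at 0, were at 1688 and 1498 CPM in number 1 and at 1087 and 1115 CPM in number 2, and 2 of 6 passed, Aqp4 and Slc1a3, both lower in number 2 than in number 1. Whether such regional or cellular content sets the levels of the 6 genes was not tested. In bulk tissue, fewer cells of a type and less RNA per cell cannot be told apart.

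**Figure D3:**
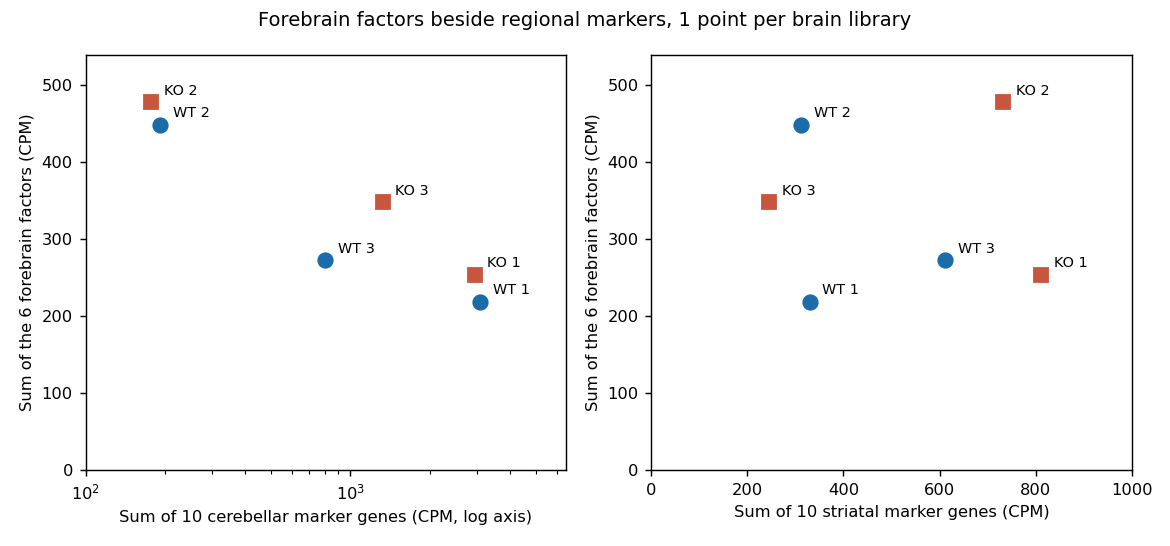
Summed CPM of the 6 genes (y axis) against the summed CPM of 10 cerebellar markers (left, log axis) and of 10 striatal markers (right), 1 point per brain library, with circles for wild type and squares for knockout. The libraries numbered 2 combine the highest sums of the 6 genes, 449 and 478 CPM, with the lowest cerebellar sums, 192 and 177 CPM.

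Other regional transcription factors were taken from lists of textbook regional factors. The F-test of number called 7.93% of all genes. Of 24 pallial factors, 0 were called between genotypes, and 7 passed the F-test of number. Of these, 6 were higher in number 2 than in number 1, Otx1, Lmo4, Pou3f2 and Etv5 among them, and Zfpm2 was lower. The median log2 difference of number 2 over 1 was 0.52 over the 24. The 3 most abundant pallial factors per kilobase differed among themselves: Mef2c had a log2 difference of 0.96 ± 0.17, Nfix of -0.01 ± 0.14 and Zbtb18 of -0.50 ± 0.13 (SE), and none of these passed the F-test.

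Of 20 subpallial factors, 17 were tested and 2 passed the F-test of number, Ebf1 and Nr2f2, where 7.93% of all genes did. Over the 17 the median log2 difference of number 2 over 1 was 0.49, and 12 were above 0. Ebf1 was lower in number 2 than in number 1, by -2.47 ± 0.24 (SE) on the log2 scale, and Nr2f2 had -0.36 ± 0.17 there and 0.54 ± 0.17 for number 3 over number 1. Among the most abundant were Foxp1 (0.69 ± 0.14) and Meis2 (0.79 ± 0.36), given as log2 differences of number 2 over 1 with SE, and neither passed. Of 20 diencephalic factors, 7 were tested and 3 passed. Among them Tcf7l2, a factor of the thalamus, and Lhx9, a close relative of Lhx2, differed by -0.04 and -0.12 between numbers 2 and 1 and were set apart by number 3, and Barhl2 had 349 and 300 counts in number 1 but 0 and 2 in number 2. Of 32 factors of midbrain, hindbrain and cerebellum, 17 were tested and 11 passed, all lower in number 2. Zic1, made by cerebellar granule cells, was at 418 and 391 CPM in number 1, 12.4 and 10.9 CPM in number 2 and 113 and 165 CPM in number 3, the reverse of the order seen for Tbr1 between numbers 1 and 2. None of the tested factors of these 3 lists was called between genotypes in edgeR's test.

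Close relatives of the 6 genes did not all share their profile. Of 12 relatives, some of which are also in the lists above, 7 were tested and 3 passed the F-test of number: Neurod1, Eomes and Lhx9, with log2 differences of number 2 over 1 of -3.81, -5.03 and -0.12. The other 4 did not pass. Among these Emx2, the relative of Emx1, had a difference of 0.99 ± 0.19 (SE, edgeR adjusted p = 0.0539 in the F-test), and Neurod4, a relative of Neurod6, one of 1.87 ± 0.44 (adjusted p = 0.0898). Neurod1, a relative of Neurod6 that cerebellar granule cells make, was at 165 and 159 CPM in number 1 and at 13.3 and 9.70 CPM in number 2. Neurod2, another relative, was at 111, 94.5 and 74.1 CPM in the wild type and at 110, 87.0 and 110 CPM in the knockout, with no excess in number 2. Bcl11a, the relative of Bcl11b, was at 87.6, 148 and 96.3 CPM in the wild type and at 71.7, 150 and 155 CPM in the knockout and did not pass (edgeR adjusted p = 0.185). Of 15 genes for partner proteins and cofactors, most of them LIM-domain partners, E proteins and TLE corepressors, 3 passed, where 7.93% of all genes did. Ldb2 and Lmo3 were higher in number 2 than in number 1, by 0.96 and 0.76 on the log2 scale, and Tle2 was lower, at -1.21. The 3 most abundant, Tcf4, Ldb1 and Ssbp3, had log2 differences of 0.03 ± 0.16, -0.04 ± 0.12 and 0.12 ± 0.09 (SE).

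Of 24 genes of mature cortical and hippocampal neurons, 10 passed the F-test of number, where 7.93% of all genes did. All 10 were higher in number 2 than in number 1, and 14 did not pass. The median log2 difference was 0.85 over the 24. The members differed: Nptx1 had a difference of -0.27 and Wfs1 one of 0.24 ± 0.31 (SE). In the genotype test 0 were called, and their median was 0.11. Nrgn, a calmodulin-binding protein of forebrain synapses, was at 450, 1080 and 574 CPM in the wild type and at 597, 981 and 826 CPM in the knockout (edgeR adjusted p = 0.0438). Camk2a, the alpha subunit of the synaptic calcium and calmodulin-dependent kinase, had a log2 difference of 0.96 ± 0.20 and an edgeR adjusted p of 0.0776. The vesicular glutamate transporter Slc17a7 had one of 0.59 ± 0.18 (SE) and an adjusted p of 0.174.

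These counts depended on single libraries, in a recount of the lists that was added after seeing the data. Calls over all genes moved widely over the same fits, as given below. The changes therefore cannot be read as particular to these lists. Without wild-type library 1, wild-type library 2 or knockout library 1, none of the 24 pallial factors and none of the 24 cortical and hippocampal genes passed the F-test of number in edgeR. Without knockout library 2, 3 and 4 of them passed. Without wild-type library 3 or knockout library 3, 15 pallial factors passed in each case, with 18 and 19 cortical and hippocampal genes. Of the factors of midbrain, hindbrain and cerebellum 5 to 15 passed in these fits, and of the cerebellar markers 6 to 10. The subpallial factors had 0 to 11 calls, and the striatal markers 0 to 9.

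**Figure D4:**
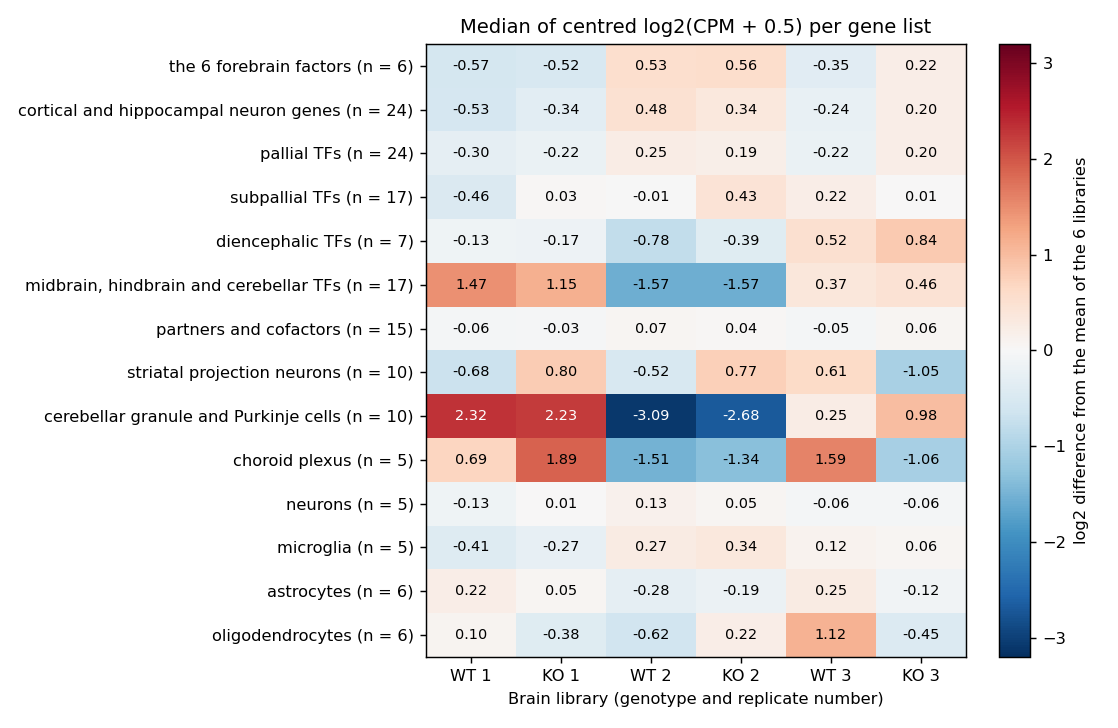
Median over the tested genes of each list of log2(CPM + 0.5), centred per gene on the mean of the 6 brain libraries (colour and number), by library (columns). The row of the 6 factors runs from -0.57 in wild-type library 1 to 0.56 in knockout library 2, and the cerebellar row from 2.32 to -3.09.

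Among 16726 genes at a mean of at least 1 CPM in brain, those with the most similar profile over the 6 libraries were found by the root mean square difference in centred log2(CPM + 0.5). For Emx1 they were Nr2e1, a nuclear receptor of forebrain progenitors, Camk2a and the potassium channel subunit Kcnf1, at 0.0714 to 0.0761. For Lhx2 they were the muscarinic receptor Chrm1, the ubiquitin ligase Neurl1b and the cyclooxygenase Ptgs2, at 0.0580 to 0.0712. For Neurod6 they were Gm38259, the cholecystokinin receptor Cckbr and the matrix protein Npnt, at 0.0370 to 0.0651, and for Tbr1 the actin nucleator Cobl, the surface protein Cd34 and Gm11549, at 0.0658 to 0.0714. Fezf2 was less closely matched, by Gm49300, Gm47411 and Neurl1b at 0.0974 to 0.119. Bcl11b was matched by Ptpn5, a phosphatase enriched in striatum, Lemd1 and Foxp1, a forkhead factor of striatal and cortical neurons, at 0.0655 to 0.0758. Neurl1b, for Fezf2 and Lhx2, was the only gene named for more than 1 of the 6. With a pseudocount of 0.1, Camk2a and Kcnf1 were no longer among the 3 nearest to Emx1. Nor were Gm49300 and Gm47411 for Fezf2, or Foxp1 for Bcl11b. The counts of Foxp1 were fractional in all 12 libraries and those of Lemd1 in 6, and both overlap other genes on the same strand.

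In liver, 4 of the 6 genes were not found beyond single reads. Emx1, Neurod6 and Fezf2 had 0 counts in all 6 liver libraries, and Tbr1 had 1 count in knockout liver 1 and 0 in the other 5. A count of 0 allows up to 3 counts, which averaged 0.160 CPM over the wild-type and 0.165 CPM over the knockout livers with both tissues scaled in 1 fit. Against that floor in each library, wild-type brain was at least 42.5-fold higher for Emx1, 207-fold for Neurod6, 582-fold for Tbr1 and 81.0-fold for Fezf2. With the same floor, knockout brain was at least 45.9-fold higher for Emx1, 211-fold for Neurod6 and 92.9-fold for Fezf2. These 4 genes passed the filter on low counts through brain alone and so had to differ.

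Lhx2 and Bcl11b were present in liver. Lhx2 had 64, 85 and 107 counts in wild-type livers 1 to 3 and 81, 79 and 89 in knockout livers, and Bcl11b had 14, 9 and 11 and 20, 21 and 12 counts. The genotypes overlapped for both genes, whereas 9.84% of the genes tested in liver did not overlap. Within same-numbered livers Bcl11b was higher in the knockout in 3 of 3 pairs, at 0.766 against 0.588, 0.893 against 0.331 and 0.510 against 0.428 CPM. Lhx2 was higher in the knockout in numbers 1 and 2 and lower in number 3. Lhx2 was higher in brain by 2.38 ± 0.32 on the log2 scale in the wild type (edgeR adjusted p = 0.000230) and by 2.50 ± 0.29 in the knockout (adjusted p = 0.000124), and Bcl11b by 6.75 ± 0.32 (adjusted p = 7.94e-07) and 6.35 ± 0.28 (adjusted p = 7.34e-07), with 3 of 3 brain libraries above every liver library in each comparison. Of all genes tested, 78.6% were called in the wild type and 78.7% in the knockout, and 43.9% and 43.5% were called higher in brain. With library totals in place of TMM the differences were 3.21 and 3.37 for Lhx2 and 7.58 and 7.23 for Bcl11b in wild type and knockout. The median of all genes then moved from 0.21 to 1.05 in the wild type and from 0.21 to 1.08 in the knockout, and the split of calls from 8275 higher and 6542 lower in brain to 11635 and 3997 in the wild type, and from 8178 and 6611 to 11668 and 3871 in the knockout.

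Between genotypes in liver, the log2 fold change of knockout over wild type was 0.04 ± 0.21 (SE) for Lhx2 and 0.69 ± 0.38 for Bcl11b, with edgeR adjusted p-values of 0.999 and 0.992, where 0% of 15329 genes were called and 3.5% fell under an unadjusted p of 0.05. The 95% interval for Lhx2 ran from 0.730-fold to 1.44-fold, and that for Bcl11b from 0.869-fold to 2.99-fold. These values did not use the pairing by number. With the replicate number as a block, the log2 fold change was 0.05 for Lhx2 and 0.68 for Bcl11b (edgeR adjusted p = 0.964 and 0.818). In that fit 983 genes fell under an unadjusted p of 0.05, against 536 without the block. The sign for Lhx2 was not settled: it was -0.10 without wild-type liver 1, -0.01 without wild-type liver 2 and -0.04 without knockout liver 3. Beside Bcl11b, the summed level of 8 T and NK cell markers was 2.80 to 3.68 CPM in wild-type and 3.48 to 5.23 CPM in knockout liver, with none of the 8 at 0 in all livers. Beside Lhx2, 7 genes made by stellate cells, some of them by other cells as well, summed to 345 to 396 CPM and 337 to 407 CPM, with none at 0. The part of these cells in either result was not tested. The knockout effect did not differ detectably between the tissues, with an interaction of 0.14 ± 0.46 for Lhx2 and -0.38 ± 0.47 for Bcl11b on the log2 scale (SE, brain minus liver, edgeR adjusted p = 1.00 for both, with 0% of 20141 genes called and 2.43% at an unadjusted p under 0.05). Without single libraries the interaction for Lhx2 turned to -0.12 (wild-type brain 1), -0.04 (knockout brain 2), -0.07 (knockout brain 3) and -0.05 (wild-type liver 3), and that for Bcl11b ran from -0.65 (knockout brain 2) to -0.19 (wild-type brain 2).

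**Figure D5:**
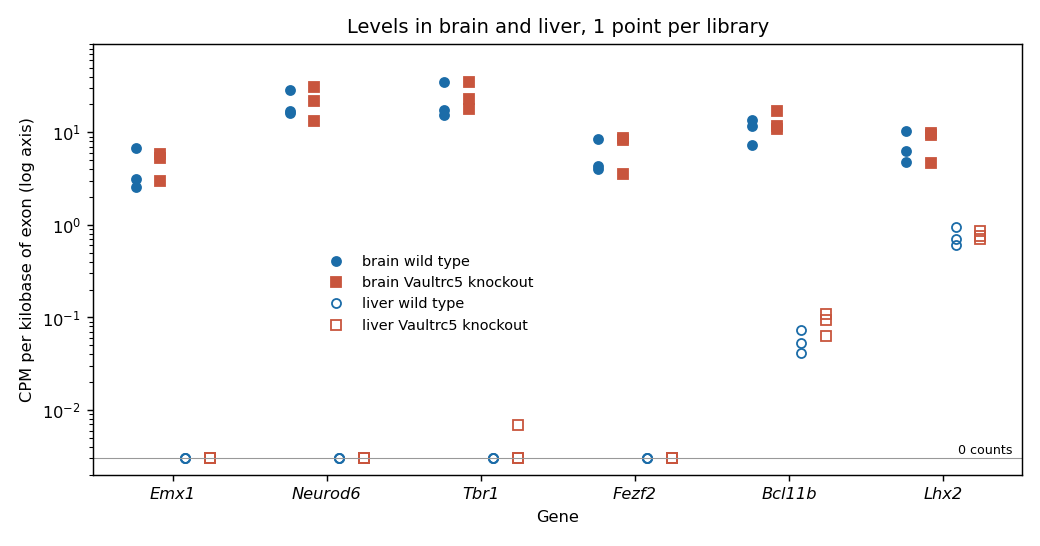
CPM per kilobase of exon (y axis, log scale) of the 6 genes in each library, with filled symbols for brain, open symbols for liver, circles for wild type and squares for knockout. Libraries with 0 counts sit on the lowest line. In liver only Lhx2 and Bcl11b lie above it in every library.

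As a description of the 6 genes, the 250 bases before their RefSeq start sites (GRCm38.p6, 7 windows, since Lhx2 has 2) were searched on both strands. The windows of Neurod6, 1 of the 4 genes not found in liver beyond single reads, and of the upstream start of Lhx2, which was found in both tissues, are shown, since only they held no annotated exon. Capitals mark matches to the motifs given next.
Neurod6, chr6:55681264-55681513, minus strand: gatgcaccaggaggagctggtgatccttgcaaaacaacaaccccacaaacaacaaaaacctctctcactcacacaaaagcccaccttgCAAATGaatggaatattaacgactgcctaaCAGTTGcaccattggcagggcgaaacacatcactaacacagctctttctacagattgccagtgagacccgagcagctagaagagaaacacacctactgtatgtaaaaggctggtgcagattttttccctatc
Lhx2, chr2:38339031-38339280, plus strand: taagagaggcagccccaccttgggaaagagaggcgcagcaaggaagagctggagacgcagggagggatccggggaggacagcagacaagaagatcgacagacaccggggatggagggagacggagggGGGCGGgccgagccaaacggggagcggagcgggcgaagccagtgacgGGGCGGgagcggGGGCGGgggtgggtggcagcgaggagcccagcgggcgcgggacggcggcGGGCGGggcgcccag

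The Neurod6 window held 46.0% G and C with 3 CG dinucleotides and 2 E-boxes, CAAATG and CAGTTG. The Lhx2 window held 72.8% G and C with 25 CG dinucleotides and 4 GC boxes. The median window of the 32851 in the table had 52.4% and 6. GC boxes (GGGCGG) were in 4 of the 7 windows, those of Lhx2 (upstream start), Tbr1, Emx1 and Fezf2, and in 32.7% of all windows. E-boxes (CANNTG) were in 3, those of Tbr1, Neurod6 and Emx1, against 66.2%. The homeodomain core TAATTA was in the Tbr1 window alone, at 2 places, against 4.84% of all windows, and TGACCA was there as well, against 11.4%. The narrower E-box CAGATG (14.4% of windows, a subset of CANNTG), the T-box core GGTGTGA (3.33%) and TATAAA (12.4%) were in none of the 7. No motif was shared by all 6 genes.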

How the data were processed

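The values are the authors' expected counts, deposited as 1 table of genes by libraries, neither normalized nor pooled. Per the submitters' processing notes, cutadapt and STAR were used with mm10; how reads were counted, and whether by strand, is not given in the sources used here. Per the labels' protocols, RNA was depleted of ribosomal RNA and sequenced from stranded, single-end total RNA libraries. All 55450 identifiers and symbols matched GENCODE M21 (GRCm38), the source of coordinates and exon lengths. The counts of the 6 genes were whole in all 12 libraries, and no exon of theirs overlaps another gene's.

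Counts were rounded and tested with edgeR 4.0.16 (R 4.3.3, TMM, filterByExpr, quasi-likelihood F-test, Benjamini-Hochberg threshold 0.05 over all genes tested). Each comparison used its own 6 libraries, and the interaction used all 12. SE is the absolute log2 fold change over the root of F. CPM are scaled within a tissue. Pairs of replicates differed by 27.2 to 228 times the chi-square expected from counting (genes with at least 20 counts). Floors cover counting error only. Same-numbered liver libraries of both genotypes deviated together (r = 0.321, 0.332 and 0.383), taken as a pairing by title number. The fits were tested on simulated data. The genes named were the 6, the 3 most abundant of each list per kilobase, the 3 nearest to each of the 6, and label checks; list genes named because they passed the F-test of number, Gabra6, Emx2, Neurod4, Nptx1, Wfs1 and the differences between single numbers were chosen after values were seen. Some genes that these rules name are not reported here. Members and lists were chosen with earlier results of these data known. Alternatives were DESeq2 1.42.0 and its size factors, library totals, other filters, no robust estimation, the replicate block, all 12 libraries, leaving out libraries, and a pseudocount of 0.1.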

Additional observations from a re-analysis of the deposited data

How the results depend on the processing

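No setting gave a called gene between genotypes in brain: the count was 0 in each, the replicate block and the fits without single libraries or numbers (0 to 0) included. In brain the numbers did not meet the rule for pairing, since the deviations of same-numbered libraries correlated at 0.626, 0.611 and -0.01 for numbers 1, 2 and 3. Without single libraries or numbers the log2 fold changes of knockout over wild type in brain ran from -0.076 to 0.73 for Emx1, -0.10 to 0.52 for Lhx2, -0.21 to 0.43 for Neurod6, -0.13 to 0.63 for Tbr1, -0.042 to 0.70 for Fezf2 and 0.084 to 0.49 for Bcl11b. In liver the 0 called genes (536 with an unadjusted p under 0.05 in edgeR) became 4 without a low-count filter, 10 with the DESeq2 Wald test, 2 with the replicate block and 0 to 1 without single libraries, and none of these fits called Lhx2 or Bcl11b. Lhx2 in liver was -0.0082 with library totals and -0.10 to 0.23 without single libraries. The interaction count of 0 (489 unadjusted) became 1 with the DESeq2 Wald test and 2 with the replicate block, and Lhx2 ran from -0.12 to 0.51 without single libraries. The 1433 genes called by number in brain became 2400 without a low-count filter and 50 to 4177 without single libraries or both numbered 3. Bcl11b did not pass there with library totals (edgeR adjusted p = 0.0666) or without robust estimation (0.0692), Emx1 passed without a filter (0.0199), and the DESeq2 likelihood ratio test called Emx1, Lhx2, Neurod6 and Fezf2 (adjusted p from 0.00100 to 0.0469). The cause was not tested. Brain over liver kept its direction and call for Lhx2 and Bcl11b in each setting run; the other 4 genes had to differ. Of the 18 nearest genes, 13 were also found with a pseudocount of 0.1. Counts ran from 95 to 267 for Emx1 in brain and from 9 to 21 for Bcl11b in liver, where the 4 genes at 0 or 1 count could not be compared between genotypes; a limit set by depth was not tested.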

Other observations

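Some genes were higher in wild-type brain library 3 than in the other 5 brain libraries. Hoxb5, a factor of the caudal hindbrain and spinal cord, was at 17.5 CPM there and at no more than 0.178 CPM in the other 5, and Hoxa5 was at 7.30 CPM there. Hindbrain neuron markers, 5 genes, summed to 225 CPM in that library and to between 11.9 and 29.7 CPM in the other 5, and 6 oligodendrocyte genes summed to 7343 CPM there and to between 2128 and 3917 CPM in the other 5. These genes were chosen after their values were seen, and the cerebellar markers, at 801 CPM there, were below the libraries numbered 1 (3092 and 2946 CPM). The summed level of the 6 forebrain factors was 273 CPM in that library, above the libraries numbered 1 (219 and 254 CPM) and below knockout library 3 (349 CPM).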
